A study of Mus musculus with 10 samples.

Results

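The CCN proteins and YAP target genes were followed as 8 genes, Ccn1, Ccn2, Ankrd1, Amotl2, Ajuba, Lats2, Yap1 and Tead1, of 18193 genes that had a probe set of their own on the arrays. They were taken by name, with earlier results of these data known. Every probe set whose annotation carried 1 of these symbols and no other was used, which gave 19 probe sets. The 1 probe set shared by Lats2 and Xpo4 was left out. The cells were mouse Lewis lung carcinoma (LLC) cells, a tumour line from C57BL/6 mice, stably expressing TDAG8, a proton-sensing receptor encoded by Gpr65 (the TDAG8 line), or carrying the control vector (the control line). After 12 h of serum starvation in DMEM with bovine serum albumin at pH 7.4, both were kept at pH 6.4 or pH 7.4 for 4 h or 12 h, with 1 further sample of either line taken before treatment. All 10 samples had thus been starved of serum. Each of the 10 Affymetrix arrays received equal amounts of RNA from 4 separate cultures, so every line and condition had 1 array and no replicate. The sources used here do not give the promoter that drives TDAG8 or say whether either line was 1 clone.

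YAP (Yap1) and its relative TAZ (Wwtr1) are transcriptional coactivators that have no DNA-binding domain and reach their target genes through TEAD proteins such as Tead1. The Hippo kinases, among them LATS1 and LATS2, phosphorylate YAP and hold it in the cytoplasm, and cell shape, actin tension and G protein-coupled receptors feed into this step. Ccn1 (also called Cyr61) and Ccn2 (Ctgf) encode secreted matricellular proteins that bind integrins and are among the best known YAP targets. Ankrd1 encodes an ankyrin repeat protein of nucleus and sarcomere, Amotl2 a junction-associated angiomotin that binds and restrains YAP, and Ajuba a LIM protein that restrains LATS kinases. Lats2 and Amotl2 are YAP targets that act back on YAP as inhibitors.

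The promoters are shown because the binding sequence of TEAD proteins is the link between YAP and these genes. The RefSeq promoter table (GRCm38.p6) matched 6 of the 8 genes, and Ccn2 and Tead1 are named only. The motif searched was GGAATG on either strand, which reads CATTCC on the other strand. Below are the 250 bases upstream of the annotated start of 5 genes, 5′ to 3′ on the gene's strand, with each match in capitals. They are Ccn1 at chr3:145649986-145650235 (minus strand), Ankrd1 at chr19:36119845-36120094 (minus), Amotl2 at chr9:102717554-102717803 (plus), Ajuba at chr14:54577662-54577911 (minus) and Yap1 at chr9:8004597-8004846 (minus). Of the genes with a sequence, the first 4 are those at least 1 higher on the log2 scale at pH 6.4 than at pH 7.4 in at least 3 of the 4 matched pairs of arrays described below, and the brightest probe set of Yap1 was within 0.27 of its pH 7.4 level in every pair.
Ccn1: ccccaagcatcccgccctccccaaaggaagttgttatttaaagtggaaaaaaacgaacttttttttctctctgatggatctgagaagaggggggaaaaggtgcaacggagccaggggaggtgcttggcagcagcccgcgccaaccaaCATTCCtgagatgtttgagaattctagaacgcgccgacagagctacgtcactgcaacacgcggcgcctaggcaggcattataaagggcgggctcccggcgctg
Ankrd1: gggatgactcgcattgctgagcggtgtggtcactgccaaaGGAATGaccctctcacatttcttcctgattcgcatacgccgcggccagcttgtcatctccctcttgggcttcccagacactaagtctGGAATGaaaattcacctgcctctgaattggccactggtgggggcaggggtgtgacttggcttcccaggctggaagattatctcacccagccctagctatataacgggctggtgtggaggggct
Amotl2: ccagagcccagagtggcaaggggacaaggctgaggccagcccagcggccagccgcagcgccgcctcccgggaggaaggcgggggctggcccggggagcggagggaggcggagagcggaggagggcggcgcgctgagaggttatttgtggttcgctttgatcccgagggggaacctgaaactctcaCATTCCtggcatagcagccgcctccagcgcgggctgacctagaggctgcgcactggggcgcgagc
Ajuba: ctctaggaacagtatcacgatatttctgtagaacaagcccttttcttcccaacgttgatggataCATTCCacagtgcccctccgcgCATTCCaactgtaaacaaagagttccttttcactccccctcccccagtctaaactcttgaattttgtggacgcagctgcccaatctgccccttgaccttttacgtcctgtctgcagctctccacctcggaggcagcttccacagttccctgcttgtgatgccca
Yap1: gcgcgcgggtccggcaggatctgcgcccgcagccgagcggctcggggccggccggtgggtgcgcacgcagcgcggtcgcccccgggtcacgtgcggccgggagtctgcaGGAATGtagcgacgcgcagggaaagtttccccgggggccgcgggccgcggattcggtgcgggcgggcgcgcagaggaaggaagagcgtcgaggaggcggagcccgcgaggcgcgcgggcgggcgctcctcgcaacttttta

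Within the window of 250 bases before to 50 bases after the start, 6 of the 6 genes with a window held the motif, against 16.58% of the 27025 genes in the table. In the related gene lists described below, 5 of 7 coactivator, TEAD and VGLL genes held it (71.43%). So did 3 of 11 other YAP and TAZ signature genes (27.27%), 4 of 18 Hippo genes (22.22%) and 0 of 1 other CCN gene. The first base of the match lay at -103 in Ccn1, -65 in Amotl2 and -141 in Yap1, counted from the start. Ankrd1 had matches at -210 and -123, and Ajuba at -186 and -164. In Lats2 the match lay at 5, inside the transcript, in 1 of its annotated windows. Among the genes tested that had a window, 70 of 439 genes higher at pH 6.4 (15.95%) and 61 of 559 genes lower at pH 6.4 (10.91%) held it, against 14.24% of the 9861 genes tested, and it was also present at Yap1, whose level barely moved. The CArG box bound by serum response factor and the AP-1 motif TGANTCA, searched on both strands, had 0 matches in the 6 genes, against 1.806% and 8.973% of all genes. The core TGACG of the cyclic AMP response element, on either strand, was found in 2 of the 6 (Ccn1 and Lats2), against 23.05% of all genes, 34.9% of the genes tested and 41.23% of those higher at pH 6.4. A match is a description of the letters and no measurement of binding.

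**Figure D1:**
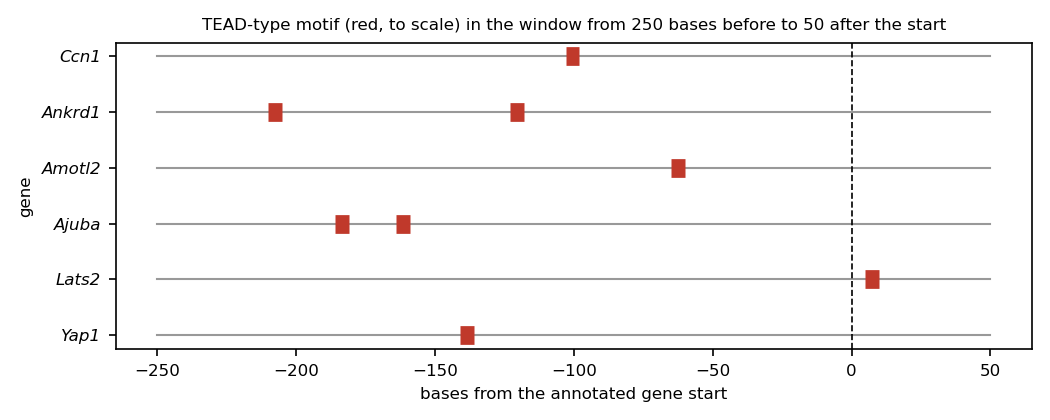
Position of each GGAATG or CATTCC match (red blocks, drawn to scale) in the promoter windows of the 6 genes with a RefSeq window, in bases from the annotated gene start (dashed line). Ankrd1 and Ajuba carry 2 matches each, and the match of Lats2 lies just after the start.

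Signal is the deposited linear intensity of a probe set, in arbitrary units, and levels of different probe sets cannot be set against each other. The array medians of deposited signal lay between 11.7 and 13.8. Differences are log2(normalised signal + 2.36), so folds of dim genes are understated, and genes with a mean log2 value under 3.17 (a signal near 6.61) were not tested. That mean was taken over all arrays, acid ones included, so a gene high in acid alone could enter the test through them. The probe set of Gpr65 read 0.9 to 5.3 in the TDAG8 line and 0.3 to 4.9 in the control line, so it did not register the introduced receptor and is no check of the labels. Of 7 epithelial markers 4 passed the low-signal limit, with Krt8 between 1242 and 2648 but Cdh1 (E-cadherin) between 0.2 and 5.3, and of 7 mesenchymal markers 5 passed, with Vim between 6140 and 9227. Summed epithelial signal was 1296 to 2887 at pH 6.4 and 1635 to 2234 on the other arrays, and summed mesenchymal signal was 14954 to 18754 and 13731 to 18762. Leukocyte and endothelial markers were mostly dim (2 of 6 and 2 of 5 passed; Ptprc 1.2 to 6.3, Pecam1 0.8 to 6.6), with leukocyte sums of 29.8 to 39.5 at pH 6.4 and 17.6 to 32.3 elsewhere, and endothelial sums of 16.8 to 33.6 and 19.6 to 26.6. The part of these sums in the results was not tested. Fewer cells expressing a gene and less RNA per cell cannot be told apart in such arrays.

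At pH 6.4, 3 of the 7 members tested rose, namely Ccn1, Ankrd1 and Amotl2, and each was higher in both lines at both times. The other 4 did not pass. Ajuba was higher at pH 6.4 in all 4 pairs without passing the test. Yap1 differed little, and Lats2 and Tead1 depended on the probe set read. This comparison asks what extracellular acid does whichever line is used, and set pH 6.4 against pH 7.4 over 4 matched pairs of arrays (2 lines at 2 times) with limma, calling an adjusted p under 0.05 a pass. Of the 12161 genes tested, 4.46% were higher and 5.55% lower at pH 6.4, so 3 of 7 higher and 0 of 7 lower stands beside those shares. Since the members were chosen with earlier results of these data known, this is a description and no test of an excess. With each array centred on its median 31.8% of the passing genes were higher, and with the values as deposited 33.1%, against 44.5% here. Conditions stand in for replicates, so a p-value speaks of the spread among these arrays alone. Leaving out the 12 h pair of either line left 0 genes passing among all 12161, with Ccn1 at an adjusted p of 0.065 and 0.078. Without the 4 h pair of TDAG8 cells 44 genes passed, Ccn1 among them and Ankrd1 and Amotl2 not.

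Among the secreted CCN proteins, Ccn1 had the largest difference of the 7 members tested. TDAG8 cells had a Ccn1 signal of 1216 at 4 h and 338 at 12 h of pH 6.4, against 37.6 and 36.4 at pH 7.4 and 35.0 before treatment. Control cells had 290.2 at 4 h and 674 at 12 h of pH 6.4, against 41.8 and 38.4 at pH 7.4 and 32.5 before treatment. All 4 arrays at pH 6.4 lay far above the other 6, and those 6 differed little among themselves. The acid-to-neutral fold was 30.3 at 4 h and 9.03 at 12 h for TDAG8 cells, against 6.93 and 17.6 for control cells. Over the 4 pairs the log2 difference was 3.76 (SE 0.37, adjusted p = 0.0144, limma).

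In all 4 Ccn1 probe sets the same 2 arrays were highest, TDAG8 cells at 4 h and control cells at 12 h of acid. The second brightest probe set read 854.5 and 255 for TDAG8 cells and 237 and 524 for control cells at 4 h and 12 h of pH 6.4, against 11.8 to 21.2 at pH 7.4. The 2 dim ones reached 34.6 and 37.8 at most, with no reading above 3.2 at pH 7.4. With every probe set fitted on its own (22854 probe sets, 2513 passing), the second brightest differed by 4.53 (SE 0.35, adjusted p = 0.00827) and 1 of the dim ones by 2.70 (adjusted p = 0.00946). The remaining one lay under the low-signal limit, and the dim one that was fitted reached it only through its acid arrays.

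Ccn2 was near the lower end of the arrays throughout. TDAG8 cells read 17.0 at 4 h and 2.7 at 12 h of pH 6.4, against 4.7 and 0.3 at pH 7.4 and 0.3 before treatment. Control cells read 6.7 and 6.1 at pH 6.4, against 0.4 and 0.2 at pH 7.4 and 1.8 before treatment. Each acid array was above its neutral partner, but the groups overlapped, since TDAG8 cells read 2.7 at 12 h of pH 6.4 and 4.7 at 4 h of pH 7.4. Its single probe set fell under the low-signal limit and was not tested. With no limit on low signal the log2 difference was 1.47 (adjusted p = 0.0483), but 3 of its 4 readings at pH 7.4 were smaller than the constant added before taking logarithms.

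The intracellular target Ankrd1 was dim outside acid. TDAG8 cells read 59.7 at 4 h and 25.5 at 12 h of pH 6.4, against 13.1 and 5.5 at pH 7.4 and 6.1 before treatment. Control cells read 10 and 71.6 at the same times of pH 6.4, against 2.1 and 5.7 at pH 7.4 and 10.4 before treatment. Control cells at 4 h of acid were no higher than before treatment, and their pH 7.4 partner was the lowest of the 10 arrays. Without the acid arrays, the mean log2 value of the brightest Ankrd1 probe set would lie just under the low-signal limit. The second probe set would stay above that limit, so Ankrd1 would then be tested through the second one. Ankrd1 differed by 2.18 over the 4 pairs (SE 0.33, 4.52-fold, adjusted p = 0.0230). The call was lost with no limit on low signal (adjusted p = 0.0581) and with a smaller added constant of 0.58 (adjusted p = 0.0669). The second Ankrd1 probe set had the same highest array (62.2, control line, 12 h of acid). Fitted on its own it did not pass (log2 difference 1.58, limma adjusted p = 0.0585), so the call of Ankrd1 depended on the probe set read.

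The YAP-binding Amotl2 rose with a smaller spread between pairs. It read 362 at 4 h and 311 at 12 h of pH 6.4 for TDAG8 cells, against 78.9 and 66.2 at pH 7.4 and 92.8 before treatment. Control cells showed 159.9 and 426 at pH 6.4, against 68.6 and 68.1 at pH 7.4 and 81.0 before treatment. The acid and neutral arrays did not overlap. Its log2 difference was 2.11 (SE 0.23, 4.33-fold, adjusted p = 0.0159).

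The LATS-restraining Ajuba differed less evenly. It read 581.5 at 4 h and 546 at 12 h of pH 6.4 for TDAG8 cells, against 204 and 213 at pH 7.4 and 276.5 before treatment. For control cells it read 259 and 844 at pH 6.4, against 249.1 and 197 at pH 7.4 and 249.2 before treatment. At 4 h of acid control cells were thus level with their neutral partner, while the other 3 acid arrays were more than 2 times theirs. The log2 difference of 1.27 (SE 0.31) missed the threshold (adjusted p = 0.0588), and it passed under 6 of 15 other settings, among them without the 4 h pair of the control line (adjusted p = 0.0432).

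After normalisation, Ccn1, Amotl2 and Ajuba had all 4 acid arrays above all 6 others, 3 of the 7 members tested, against 9.57% of all genes tested. For Ajuba the deposited signal did overlap, with 259 for control cells at 4 h of acid and 276.5 for TDAG8 cells before treatment. Set pair by pair, 4 members were at least 1 higher on the log2 scale at pH 6.4 in the TDAG8 line at 4 h (Ccn1, Ankrd1, Amotl2, Ajuba; 3.37% of all genes), and 5 at 12 h with Lats2 added (5.83%). For control cells the count was 3 at 4 h (Ccn1, Ankrd1, Amotl2; 3.26%) and 4 with Ajuba added at 12 h (5.95%). These pairs are single arrays and were not tested.

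**Figure D2:**
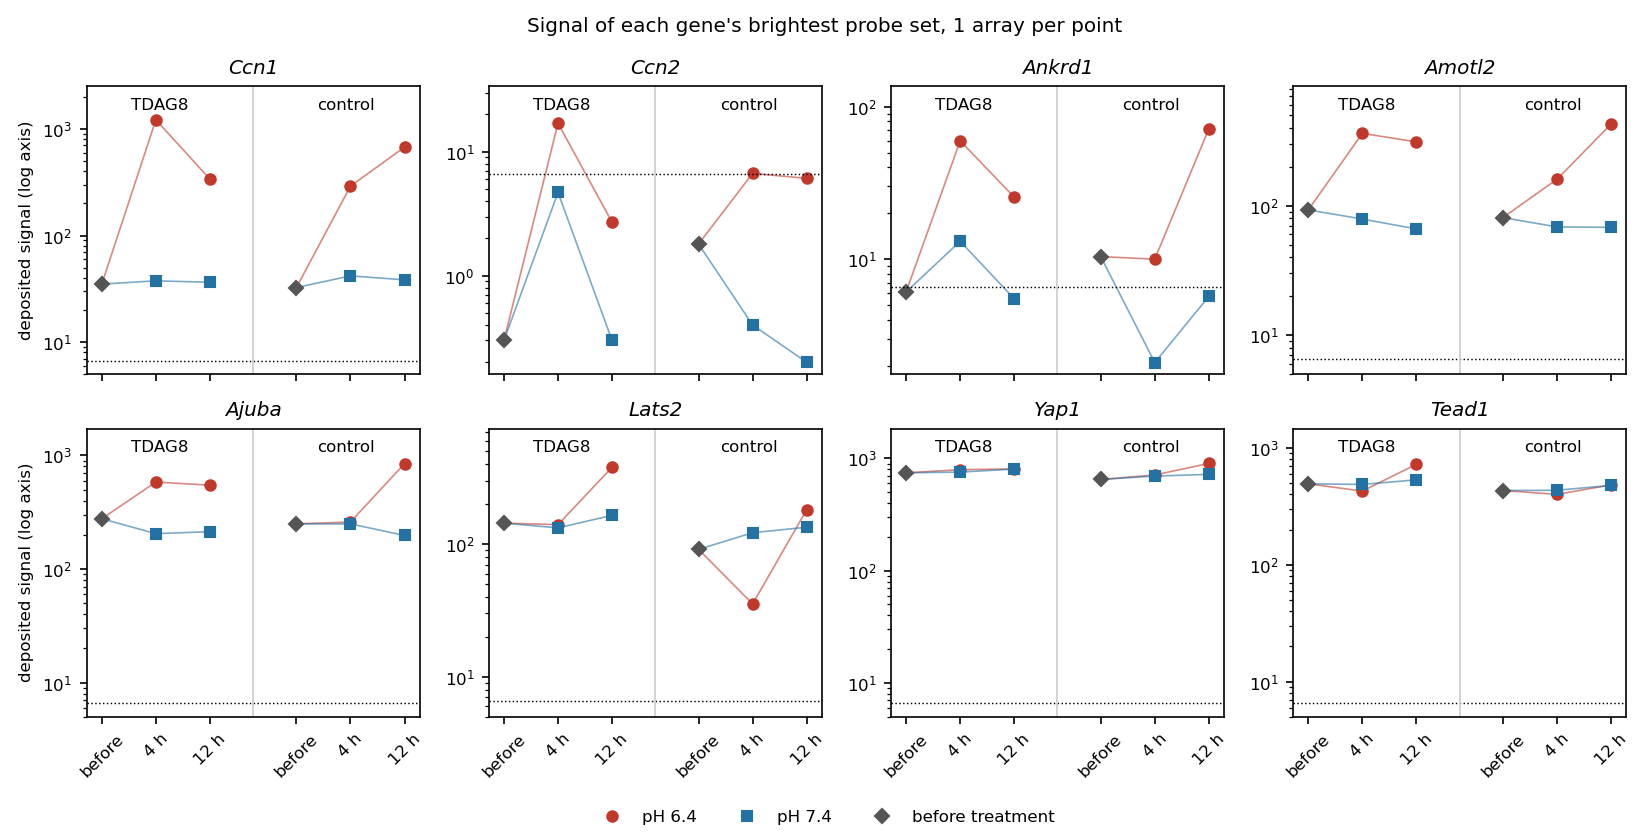
Deposited signal (log axis, arbitrary units) of each gene's brightest probe set by time, with 1 array per point and TDAG8 cells on the left and control cells on the right of each panel. Red circles are pH 6.4, blue squares pH 7.4, grey diamonds before treatment, and the dotted line is the low-signal limit of 6.61. Ccn1 reaches 1216 at 4 h of acid in TDAG8 cells and 674 at 12 h in control cells, while Yap1 runs nearly level. Tead1 is highest at 12 h of acid in TDAG8 cells, at 724.5.

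The feedback kinase Lats2 had 6 probe sets, and they disagreed. The brightest read 140.2 at 4 h and 379 at 12 h of pH 6.4 in TDAG8 cells, against 132.5 and 165 at pH 7.4 and 144 before treatment. In control cells it read 35.4 and 181 at pH 6.4, against 122 and 134 at pH 7.4 and 91.3 before treatment. Control cells at 4 h of acid were the lowest of the 10 arrays and TDAG8 cells at 12 h of acid the highest. The log2 difference was 0.05 (SE 0.46, adjusted p = 0.955), and its sign turned with the values as deposited.

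Of the dimmer Lats2 probe sets, 1 read 35.8 and 58.3 in TDAG8 cells and 39.2 and 76.8 in control cells at 4 h and 12 h of pH 6.4, against 7.3 to 17.6 at pH 7.4. Another read 24.9 and 30.3 in TDAG8 cells and 11.2 and 20.4 in control cells at pH 6.4, against 0.9 to 7.8 at pH 7.4. Both probe sets had every acid array above every neutral one. Fitted on their own, they differed by 1.93 (SE 0.32, adjusted p = 0.0239) and 2.14 (SE 0.17, adjusted p = 0.00888). The dimmer of them reached the low-signal limit only through its acid arrays. The other 4 Lats2 probe sets had negative log2 differences in the control line at 4 h, between -0.50 and -1.68, and positive ones in the other 3 pairs. With the mean of all its probe sets Lats2 differed by 0.94 in place of 0.05, and at no setting run did it pass (lowest adjusted p = 0.100).

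By their brightest probe sets, the coactivator Yap1 and its DNA-binding partner Tead1 did not follow the targets. Yap1 read 794 and 806 in TDAG8 cells and 712 and 902 in control cells at 4 h and 12 h of pH 6.4, against 755, 803, 696.5 and 720.2 in the same order at pH 7.4. Before treatment it read 744 in TDAG8 cells and 649 in control cells. The pH groups overlapped, and the log2 difference was 0.06 (SE 0.12, adjusted p = 0.770). Tead1 read 427 and 724.5 in TDAG8 cells and 400.5 and 482 in control cells at pH 6.4, against 487, 533, 434 and 478 in the same order at pH 7.4, with 493 and 432 before treatment. TDAG8 cells at 12 h of acid stood highest, and the log2 difference was 0.06 (SE 0.14, adjusted p = 0.826).

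The second Tead1 probe set was dimmer and read otherwise. It gave 28.9 and 38.9 in TDAG8 cells and 32.4 and 30.5 in control cells at pH 6.4, against 22.6, 25.8, 8.5 and 14.4 at pH 7.4. It passed when fitted on its own (log2 difference 0.96, SE 0.21, adjusted p = 0.0445), while the brighter one did not (adjusted p = 0.830 in that fit). In the fit of single probe sets 8 of the 17 member probe sets above the limit passed, all higher at pH 6.4, against 5.51% of all probe sets fitted. These 8 belong to 5 genes, and probe sets of 1 gene share its RNA. Among the 8, the dim Ccn1 one, the dimmer Lats2 one and the Ankrd1 one reached the limit only through their acid arrays. The count of 8 is thus in part set by the limit.

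**Figure D3:**
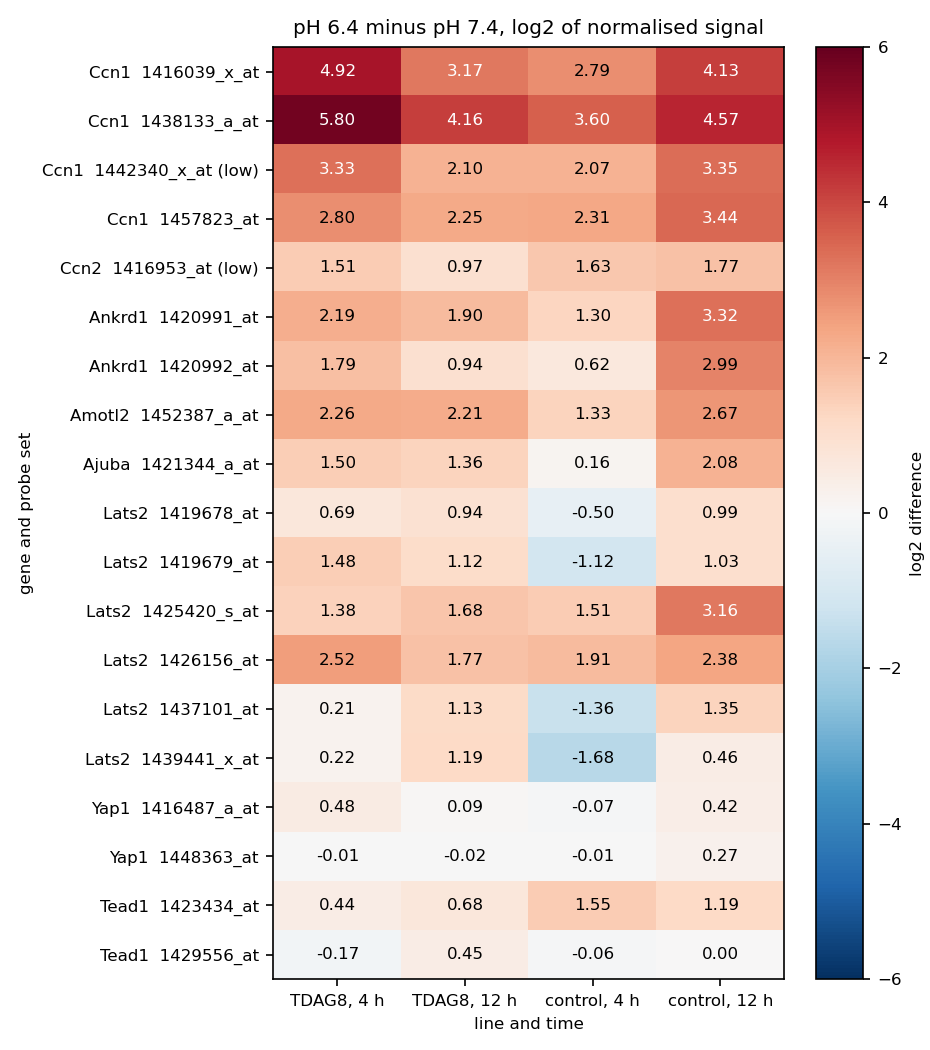
Log2 difference of normalised signal, pH 6.4 minus pH 7.4, for each of the 19 probe sets (rows) in each matched pair (columns: line and time), with the value printed in the cell and red for higher at pH 6.4. Rows marked low fell under the low-signal limit. The 4 Ccn1 probe sets are positive in every pair, and 4 of the 6 Lats2 probe sets turn negative in the control line at 4 h.

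The next comparison asks whether the acid response differed between the times or between the lines. The difference of the pH effect at 12 h minus that at 4 h passed for 0 of 7 members and for 0% of all genes (limma, smallest adjusted p = 0.0995, 3135 genes with an unadjusted p under 0.05). It was -0.20 (SE 0.83) for Ccn1, 0.87 (SE 0.61) for Ankrd1, 0.65 (SE 0.39) for Amotl2, 0.89 (SE 0.55) for Ajuba and 1.56 (SE 0.73) for Lats2. The pH effect in the TDAG8 line minus that in the control line also passed for 0 of 7 members and 0% of all genes (340 with an unadjusted p under 0.05, adjusted p of every member near 1). It was 0.58 (SE 0.76) for Ccn1 and 1.31 (SE 0.80) for Lats2. Each of these differences comes from 4 pair differences of 1 array each.

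Within acid, Ccn1 and Ankrd1 fell with time in TDAG8 cells and rose in control cells. Amotl2 and Ajuba changed little in TDAG8 cells and rose in control cells. Single arrays allow no test of this. At pH 6.4, 12 h minus 4 h was -1.80 for Ccn1, -1.19 for Ankrd1, -0.30 for Amotl2 and -0.08 for Ajuba in TDAG8 cells. The same step in control cells was 1.13 for Ccn1, 2.69 for Ankrd1, 1.27 for Amotl2 and 1.58 for Ajuba. At pH 7.4 it was -0.05, -0.90, -0.25 and 0.06 in the same order in TDAG8 cells. In control cells at pH 7.4 it was -0.21, 0.66, -0.08 and -0.34. The 4 genes were highest at 4 h of acid among TDAG8 samples and at 12 h of acid among control samples. Lats2 stood apart, with 1.29 in TDAG8 cells and 2.26 in control cells.

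The order of the lines switched between the times. At 4 h of pH 6.4, the TDAG8 line minus the control line was 1.91 for Ccn1, 2.49 for Ankrd1, 1.08 for Amotl2 and 1.05 for Ajuba on the log2 scale. At 12 h it was -1.02 for Ccn1, -1.39 for Ankrd1, -0.49 for Amotl2 and -0.61 for Ajuba. The other Ccn1 probe sets gave 1.08 to 1.68 at 4 h and -1.07 to -1.43 at 12 h, the second Ankrd1 probe set 2.37 and -1.70, and the untested Ccn2 1.14 and -0.74.

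A switch of that direction and of any size was seen in 5 of the 7 members, counting Yap1 at 0.14 and -0.13, against 18.4% of all genes tested. A switch of at least 0.58 each way was seen in 3 (Ccn1, Ankrd1 and Ajuba), against 0.666% (81 genes). The pattern was singled out after the values were seen and rests on 4 single arrays. The signs of these 4 genes at both times held under 5 of 5 other scalings, probe set rules and added constants.

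**Figure D4:**
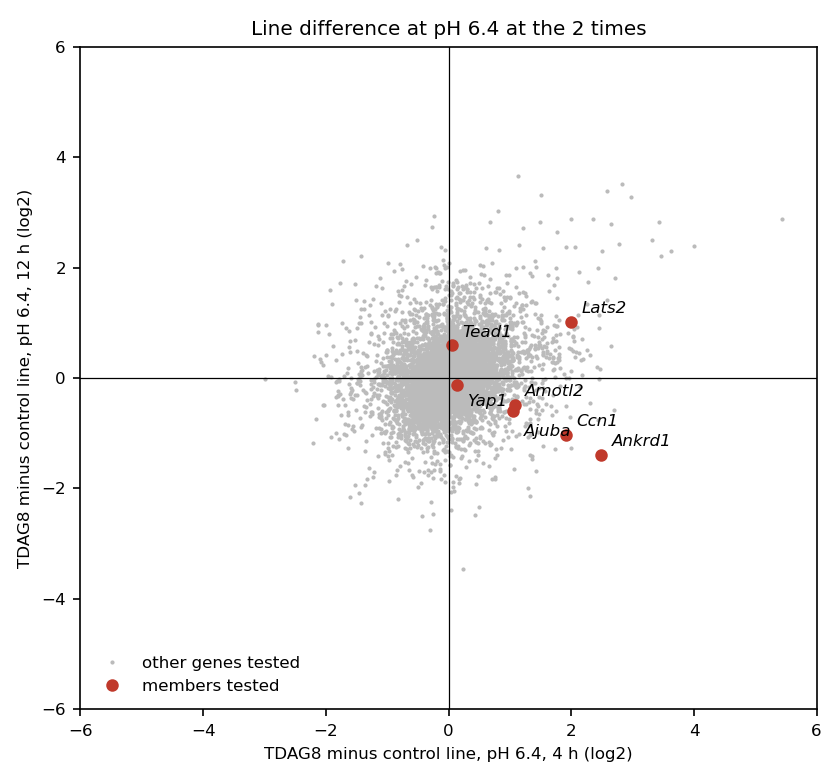
Log2 difference of the TDAG8 line minus the control line at pH 6.4, at 4 h (horizontal axis) and 12 h (vertical axis), for the 7 members tested (red) and the other genes tested (grey dots). Ccn1, Ankrd1, Amotl2 and Ajuba lie at the lower right, higher in the TDAG8 line at 4 h and lower in it at 12 h, and Lats2 is positive at both times.

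In neutral medium the lines were closer for Ccn1, Amotl2, Ajuba and Lats2, read by their brightest probe sets. Before treatment and at both neutral times these line differences of Ccn1, Amotl2, Ajuba, Yap1 and Tead1 stayed between -0.28 and 0.22. That of Lats2 was 0.57, 0.10 and 0.29. Other probe sets lay further apart. The second brightest Ccn1 one was at -0.38, -0.52 and -0.65, and the dim Ccn1 ones lay between -2.23 and 0.75. The second Tead1 probe set was at -0.31, 0.97 and 0.76. The untested Ccn2 was at -0.62, 1.26 and 0.06, so at 4 h it was higher in the TDAG8 line without acid too. Ankrd1 was 1.60 higher in the TDAG8 line at 4 h of pH 7.4, with readings of 13.1 and 2.1 near the low-signal limit. The move to fresh medium at pH 7.4 for 4 h went with a Ccn1 difference of 0.08 in TDAG8 cells and 0.29 in control cells, and 4 h at pH 6.4 with 5.00 and 3.08.

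Across all 5 matched pairs, with each condition as a block, 0 of 7 members passed between the lines, against 1.2% of all genes (146 genes, of which 56.2% were higher in the TDAG8 line, or 67.9% of those passing with the values as deposited). By its brightest probe set Lats2 was higher in the TDAG8 line in 5 of 5 pairs (log2 difference 0.80, SE 0.28, limma adjusted p = 0.188). So was Tead1 (0.23, SE 0.09, adjusted p = 0.236). Fitted on their own, the other Lats2 probe sets differed by 0.01 to 0.45 and the second Tead1 probe set by 0.31, none passing. Some of these were lower in the TDAG8 line in single pairs, down to -1.16 for Lats2 and -0.31 for Tead1. Ccn1 averaged 0.12 (SE 0.39, adjusted p = 0.893), a mean of its 2 opposite acid values and 3 near 0.

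Of the 4 other CCN genes 2 were tested, and 1 of them, Ccn4 (Wisp1, a secreted target of Wnt signalling), fell. It read 49.4 at 4 h and 25.2 at 12 h of pH 6.4 in TDAG8 cells, against 182 and 219 at pH 7.4 and 121 before treatment. Control cells read 39.7 and 12.2 at pH 6.4, against 92.9 and 135.5 at pH 7.4 and 63.3 before treatment. The acid arrays were all lower than the neutral ones, opposite to Ccn1, with a log2 difference of -2.22 (SE 0.37, adjusted p = 0.0272). Ccn4 was also higher in the TDAG8 line in 5 of 5 pairs (0.75, SE 0.10, adjusted p = 0.0434), a call lost in 11 of 16 other settings. Ccn5 (0.56, SE 0.45, adjusted p = 0.434) did not pass, and Ccn3 (0.6 to 8.2) and Ccn6 (2.9 to 10.3) were under the limit.

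Of 17 other genes of a YAP and TAZ signature on the array, 15 were tested, 1 rose and 1 fell at pH 6.4, against 4.46% and 5.55% of all genes. Their median log2 difference was 0.02, against -0.003 over all genes and 1.27 over the 7 members, whose names were chosen with such values known. The kinase Nuak2 rose, reading 95.8 and 50.4 in TDAG8 cells and 99.3 and 128.6 in control cells at 4 h and 12 h of pH 6.4, against 22.6 to 27.7 at pH 7.4 (log2 difference 1.85, SE 0.22, adjusted p = 0.0163). Like Ccn1, it read higher at 4 h than at 12 h of acid in TDAG8 cells and the other way round in control cells. The ArfGAP Asap1 fell, reading 189.7 to 288 at pH 6.4, against 363 to 475 at pH 7.4 (-0.78, SE 0.11, adjusted p = 0.0208). Probe sets of 2 further signature genes, singled out after their values were seen, disagreed. A dimmer Ptpn14 probe set read 40.0 and 142.6 in TDAG8 cells and 38.9 and 163.5 in control cells at pH 6.4, against 20.7, 12.1, 18.2 and 20.4 at pH 7.4, and passed on its own (2.07, SE 0.46, adjusted p = 0.0462), while the brightest did not (-0.23, adjusted p = 0.301). For Dock5, a dimmer one passed as higher (0.86, SE 0.19, adjusted p = 0.0476) and the brightest was at -0.86 (adjusted p = 0.161). Between the lines F3 (tissue factor) was higher in the TDAG8 line (0.51, SE 0.08, adjusted p = 0.0479), a call lost in 12 of 16 other settings.

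Of 20 Hippo kinases and adaptors tested, 0 rose and 1 fell at pH 6.4, against 4.46% and 5.55% of all genes, and their median was -0.22. At an unadjusted p under 0.05 there were 7 of 20, against 3881 of the 12161 genes tested. The 1 was Taok2, a kinase that activates the Hippo kinases, which read 19.4 to 26.5 at pH 6.4, against 41.7 to 56.4 at pH 7.4 (-1.04, SE 0.12, adjusted p = 0.0159). Among those that did not pass, Taok1 and Lats1 were singled out after their values were seen. Taok1, a relative of Taok2, read 75.5 in TDAG8 cells and 62.1 in control cells at 4 h of pH 6.4, against 421 and 360.1 at pH 7.4, but 386 and 289 at 12 h of pH 6.4, against 464 and 452 (-1.42 over the 4 pairs, SE 0.42, adjusted p = 0.0847). Lats1, the kinase paired with Lats2, read 159.5 and 114 at 4 h of pH 6.4, against 428 and 404 at pH 7.4, and 419 and 346 at 12 h of pH 6.4, against 493 and 413 (-0.88, SE 0.29, adjusted p = 0.103). Both were low in acid at 4 h in either line and nearer their pH 7.4 level at 12 h. With every probe set fitted on its own, 2 of 54 Hippo probe sets passed as higher (of Stk4 and Taok1) and 2 as lower (of Taok2 and Nf2). Of all probe sets fitted, 5.51% passed as higher and 11% in either direction. By their brightest probe sets Stk4 (-0.55) and Taok1 (-1.42) had negative differences that did not pass, opposite to these passing ones. The LIM protein gene Wtip, a relative of Ajuba, was higher in the TDAG8 line (30.9 to 47.9, against 14.4 to 24.6 in the control line; 0.84, SE 0.09, adjusted p = 0.0249), a call lost in 8 of 16 other settings. Of 8 coactivator, TEAD and VGLL genes besides the members, 6 were tested and 0 passed with limma (1 at an unadjusted p under 0.05). Wwtr1, which encodes TAZ, read 347 to 517 at pH 6.4, against 406.5 to 553 at pH 7.4 (-0.13, adjusted p = 0.464). Its other 2 probe sets had positive differences that did not pass either (0.38, adjusted p = 0.124, and 0.29, adjusted p = 0.201). Tead2, Tead3 and Tead4 differed by -0.01, 0.28 and 0.38.

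**Figure D5:**
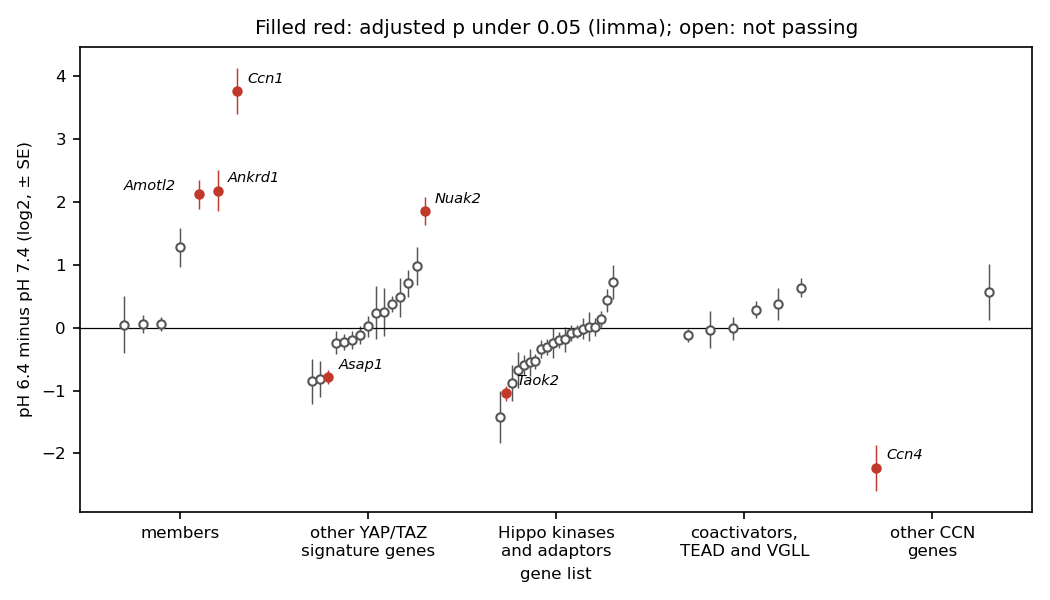
Log2 difference at pH 6.4 minus pH 7.4 for each gene tested, by gene list, with bars of 1 standard error from the limma fit over 4 pairs. Filled red points passed at an adjusted p under 0.05 and are named. Ccn1, Ankrd1, Amotl2 and Nuak2 are above 0, and Asap1, Taok2 and Ccn4 below it.

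Over the 10 arrays the members that were high in acid ran together. Pearson's r was 0.967 between Ccn1 and Amotl2, 0.955 between Amotl2 and Ajuba, 0.917 between Ankrd1 and Amotl2 and 0.864 between Ccn1 and Ankrd1. All were taken on the same 10 arrays, of which 4 at pH 6.4 stand apart. Lats2 went with Tead1 (0.794) more than with Ccn1 (0.131). The genes closest to Ccn1 among those tested, predicted genes left out, were Zc3h10 (0.978), Ccdc117 (0.974) and Pfkfb3 (0.970). Closest to Ankrd1 were Irf5 (0.933), Ttc4 (0.933) and Srf (0.922), to Amotl2 Creb3l2 (0.989), Azin1 (0.983) and Ier5 (0.983), and to Ajuba Azin1 (0.970), Sh3bp4 (0.963) and Adpgk (0.961). Closest to Lats2 were Fermt2 (0.966), Slc30a5 (0.960) and Ube2q2 (0.959). Each is the highest of 12161 correlations over 10 points and is given as a description.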

How the data were processed

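RNA of 10 samples of LLC cells was hybridised to Affymetrix mouse arrays, 1 array per line and condition, each from a pool of 4 cultures. The deposited values are linear signal intensity per probe set. The authors' summary software is not given in the sources used here, and the 2% trimmed mean was the same on every array. Of 45101 probe sets, 34945 had 1 gene symbol, 932 several, 9160 none and 64 were controls, and only those with 1 symbol were used for gene tests.

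Signals were quantile normalised and taken as log2(signal + 2.36), where 2.36 is the 20th percentile. The brightest probe set on average stood for each gene, which was tested where its mean reached the 40th percentile (12161 genes). limma 3.58.1 in R 4.3.3 (lmFit and eBayes, Benjamini-Hochberg over all genes tested) compared pH 6.4 with pH 7.4 over 4 pairs (blocks of line and time), the change of that effect with time or with line, and the 2 lines over 5 pairs with condition as a block. The scripts were tested on simulated data. The alternatives were another scaling, low-signal limit, probe set rule, added constant and variance model, each pair left out, no block, pH by time added, and treated arrays alone.

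The members and gene lists were chosen with earlier results of these data known. Besides the cell type markers and Gpr65, the genes named by rule are the members, the genes of the lists that passed, the other CCN and TEAD genes and Wwtr1. The rule also took the 3 genes, predicted genes left out, most correlated with each tested member whose log2 range over the 10 arrays reached 1. Taok1, Lats1, Ptpn14 and Dock5 were added after their values were seen. Stk4 and Nf2 are named for a passing probe set. Nuak2, Asap1, Taok2, Ccn4, F3 and Wtip are the passing list genes. Precision is limited by how few arrays there are.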

Additional observations from a re-analysis of the deposited data

Results flagged for a closer look

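The brightest Tead1 probe set was picked out because its pH effect had opposite signs at the 2 times in both lines. The log2 difference at pH 6.4 minus pH 7.4 was 0.452 in TDAG8 cells and 0.00027 in control cells at 12 h, against -0.173 and -0.0584 at 4 h. The effect at 12 h exceeded that at 4 h by 0.342, which did not pass (limma, adjusted p = 0.390), and in the control line both values lie close to 0. The second Tead1 probe set was positive in all 4 pairs, between 0.44 and 1.55.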

How the results depend on the processing

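With 1 array per group and no replicate numbers, leaving out 1 matched pair took the place of leaving out a replicate. No pairing by replicate number was possible because each group has 1 array, whose replicate number is only a name. The comparisons instead match arrays by line, time or condition. The pH comparison passed 1217 genes. The count was 169 with no limit on low signal, 1919 with the limit at the 60th percentile, 2513 probe sets with each fitted on its own, 2076 with a trended robust variance, 1863 with no block, 3393 with pH by time in the model and 0 to 278 with 1 pair left out. Without the 4 h pair 44 passed for the TDAG8 line and 278 for the control line, and without either 12 h pair 0 passed. The members passing, 3 here, were 0 to 4 with 1 pair left out. The call of Ccn1 was lost in 2 of 15 alternatives, of Amotl2 in 3 of 15 and of Ankrd1 in 5 of 14, with differences of 3.37 to 4.08, 1.93 to 2.38 and 1.58 to 2.47. The pH calls of Ccn4, Asap1, Nuak2 and Taok2 were lost in 4, 5, 3 and 4 of 15. For pH by time, 0 genes passed, but 1380 did with the limit at the 60th percentile and 1836 with the trended robust variance, no member among them. The line comparison passed 146 genes, against 84 with arrays centred on the median, 8 with no limit, 587 at the 60th percentile, 67 probe sets, 881 with the trended robust variance, 96 and 263 with an added constant of 0.58 and 7.65, 15 with no block, 6 with treated arrays alone and 4 to 28 with 1 pair left out. Signs turned only for differences that did not pass. The pH difference of Lats2 was -0.0037 with the values as deposited and -0.33 to 0.62 with 1 pair left out, that of Yap1 -0.014 to 0.084 and that of Tead1 -0.077 to 0.13. With 1 pair left out, pH by time ran from -1.27 to 0.86 for Ccn1 and -0.0086 to 0.28 for Yap1. Likewise pH by line ran from -0.29 to 1.46 for Ccn1, -1.28 to 0.75 for Ankrd1, -0.43 to 0.91 for Amotl2, -0.65 to 1.26 for Ajuba and -0.14 to 0.48 for Tead1 (-0.32 with the mean of its probe sets). The line difference ran from -0.33 to 0.40 for Ccn1 (-0.19 with the mean of its probe sets), -0.090 to 0.88 for Ankrd1, -0.064 to 0.33 for Amotl2 and -0.17 to 0.25 for Ajuba, negative only without the 4 h pair at pH 6.4 when a pair was left out. The cause of these changes was not tested. Signal over background limits Ccn2 and the neutral readings of Ankrd1, which lie near the low-signal limit.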
